A study of Mus musculus with 18 samples.

Results

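Hoxa9, Hoxa10, Hoxa11 and Hoxa13, the genes at the 5′ end of the mouse HoxA cluster, and the noncoding RNAs Hottip and Evx1os beyond it were described across 6 groups of embryonic limb buds. The 6 genes were chosen by name, not by a measured value, and are 6 of 14686 genes listed in at least 1 of the 3 deposited tables. All 6 were listed in each table. The 4 Hoxa genes were found by symbol. Hottip and Evx1os were found by gene identifier, because the tables list them under the clone names Gm15053 and 5730457N03Rik. Each group had 3 RNA-seq libraries (n = 3). In the CD1 strain, wild type forelimb buds at e10.5 were set against wild type hindlimb buds at e11.0, and limb type cannot be told apart from age in that pair. BALB/c wild type and Pitx1 null hindlimb buds were compared at e11.0 and again at e11.5. Pitx1 is the homeodomain factor that marks the hindlimb, and the sources used here do not give the null allele, the litters, or how many embryos went into a library.

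Hox genes sit in clusters, and their order on the chromosome follows where and when they are active: genes at the 3′ end come on early and near the body, genes at the 5′ end later and near the tip of the limb. Hoxa9 and Hoxa10 act in the limb base and upper limb, Hoxa11 in the future forearm and shank, and Hoxa13 in the future hand and foot, where its protein limits Hoxa11 expression. HOTTIP, studied in human cells, is transcribed away from HOXA13 and binds WDR5, a subunit of the MLL histone methyltransferases, with which it keeps the 5′ HOXA genes active. Evx1os starts inside Evx1, a homeobox gene at the 5′ edge of the cluster, and runs antisense to it, back towards Hoxa13.

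All 6 genes lie on chromosome 6 (GRCm38, GENCODE release M 21). Hoxa9 (ENSMUSG00000038227) spans 52223100 to 52231089, Hoxa10 (ENSMUSG00000000938) 52231197 to 52240854, Hoxa11 (ENSMUSG00000038210) 52242106 to 52245810 and Hoxa13 (ENSMUSG00000038203) 52257694 to 52260880, all on the minus strand. Hottip (ENSMUSG00000055408) spans 52262775 to 52267603 on the plus strand and is annotated as a lincRNA. Evx1os (ENSMUSG00000086126) spans 52308389 to 52314832 on the minus strand and is annotated as antisense. The starts of Hoxa13 and Hottip lie 1895 bases apart and point away from each other, and Evx1os starts 54.0 kb beyond Hoxa13. The exons of Hoxa11 share 800 bases, 35.0% of their length, with the antisense gene Hoxa11os, and those of Evx1os share 73 bases (2.4%) with Evx1. The sources used here do not say whether reads were counted by strand. Hoxa11 and Hoxa11os, and Evx1os and Evx1, are therefore not fully separable.

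The promoters of Hoxa13, Hottip, Evx1os and Evx1 are shown because the differences of these 4 genes had the same sign as each other in every comparison that follows. They were thus chosen by outcome. Hoxa9, Hoxa10 and Hoxa11 had the other sign at e11.5. Hoxa10 had the same sign as the 4 in CD1 and at e11.0, as did Hoxa11 in CD1 and Hoxa9 at e11.0. Each window runs from 250 bases before to 50 bases after the annotated start, 5′ to 3′ on the gene's own strand (RefSeq, GRCm38.p6): chr6:52260831-52261130 for Hoxa13 (minus strand), chr6:52262525-52262824 for Hottip (plus), chr6:52314783-52315082 for Evx1os (minus) and chr6:52313248-52313547 for Evx1 (plus). Capitals mark matches, on either strand, to CAATAAA (bound by posterior Hox proteins) or AGGTGT (bound by T-box factors).
Hoxa13: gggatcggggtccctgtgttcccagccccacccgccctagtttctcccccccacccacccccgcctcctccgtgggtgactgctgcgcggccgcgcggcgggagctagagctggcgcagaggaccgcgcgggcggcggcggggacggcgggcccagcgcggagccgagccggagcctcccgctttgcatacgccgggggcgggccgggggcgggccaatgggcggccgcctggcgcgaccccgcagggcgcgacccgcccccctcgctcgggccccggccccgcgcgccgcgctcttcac
Hottip: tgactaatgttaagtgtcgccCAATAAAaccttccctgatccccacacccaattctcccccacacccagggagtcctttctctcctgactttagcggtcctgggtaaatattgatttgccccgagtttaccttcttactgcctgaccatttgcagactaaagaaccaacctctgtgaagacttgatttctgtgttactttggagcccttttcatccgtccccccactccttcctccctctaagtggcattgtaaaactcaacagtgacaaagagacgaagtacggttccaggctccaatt
Evx1os: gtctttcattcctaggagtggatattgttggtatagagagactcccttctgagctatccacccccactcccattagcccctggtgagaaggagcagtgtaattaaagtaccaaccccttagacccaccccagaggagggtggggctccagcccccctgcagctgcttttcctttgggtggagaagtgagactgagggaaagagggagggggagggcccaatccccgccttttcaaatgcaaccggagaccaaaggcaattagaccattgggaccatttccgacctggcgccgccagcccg
Evx1: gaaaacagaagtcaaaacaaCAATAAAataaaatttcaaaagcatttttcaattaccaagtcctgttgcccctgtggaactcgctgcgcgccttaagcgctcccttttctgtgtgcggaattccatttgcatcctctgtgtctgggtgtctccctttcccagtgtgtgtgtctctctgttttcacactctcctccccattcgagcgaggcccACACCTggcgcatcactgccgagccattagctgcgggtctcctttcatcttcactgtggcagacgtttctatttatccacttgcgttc
CAATAAA occurred 229 bases before the start of Hottip and 230 bases before that of Evx1, and in 4.6% of 32851 promoter windows of the same length. AGGTGT, found in 13.7% of all windows, occurred in that of Evx1, on the opposite strand. GGATTA, the bicoid-type motif that Pitx proteins bind, was in 7.06% of all windows and TATAAA in 13.6%. Neither was in these 4 windows, and none of the 4 motifs, which do not overlap each other here, was in those of Hoxa13 and Evx1os. Of the windows not shown, that of a Hoxa10 start held AGGTGT and TATAAA, and those of Hoxa9 and Hoxa11 held none of the 4 motifs. The Hoxa13 window was 81.0% G and C, against a median of 52.7% over all windows, while those of Hottip, Evx1os and Evx1 were at 47.7%, 56.3% and 48.7%. A match is a run of letters, not a shown binding site.

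The libraries held 17.4 to 53.6 M reads (M, 1000000) on listed genes, so that 1 read was worth at most 0.0575 CPM (reads per 1000000 reads on listed genes). These depths speak of counting error only. Levels are deposited CPM, scaled separately in each table, so values from different tables are given side by side without a test. Replicates 1 and 2 of all 6 groups carry the same run number in their titles. The titles of the replicate 3 libraries at e11.0 and e11.5 name another run, a different one at each stage. Those of CD1 name none, though their column headers share the word consort in place of a run number. The CD1 fit took its replicate 3 libraries as a run of their own, which the labels do not state outright. The e11.5 libraries were enriched for mRNA, with replicate 3 unstranded, and the others were depleted of ribosomal RNA. Nothing in the labels says that replicates came from separate litters, so p-values reflect variation among these libraries, possibly technical only. As a check of the labels, Pitx1 stood at 124 ± 10.9 CPM (SD, n = 3) in e11.0 wild type libraries against 21.2 ± 1.81 CPM in null ones, and at 338 ± 23.7 against 79.8 ± 8.31 CPM at e11.5. All 6 limb mesenchyme markers were listed in each table and none of 4 neural tube markers was in any.

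Per kb of exon, Hoxa10 and Hoxa11 stood highest and Hottip lowest in every group, while the place of Hoxa13 and the order of the first 2 varied. Lengths join the exons of all annotated transcripts (5.58 kb for Hoxa9, 2.472 kb for Hoxa13), and the order depends on that choice. In plain CPM Hoxa9 stood above Hoxa13 in e11.5 wild type too (means of 106 ± 19.5 and 91.3 ± 20.9 CPM). In wild type hindlimb at e11.5 the order was Hoxa10 (62.6 ± 4.88 CPM per kb, SD, n = 3), Hoxa11 (43.0 ± 11.1), Hoxa13 (37.0 ± 8.45), Hoxa9 (19.1 ± 3.499), Evx1os (9.57 ± 0.871) and Hottip (5.04 ± 0.363). Hoxa11 and Hoxa13 overlapped there in their library ranges, and the other neighbours in that order did not. In every group before e11.5 Hoxa13 stood below Hoxa9, at 4.56 ± 1.09 CPM per kb in CD1 forelimb, 18.2 ± 1.40 in CD1 hindlimb, 10.8 ± 0.554 in e11.0 wild type and 5.79 ± 1.98 in e11.0 null hindlimb. The library ranges of Hoxa9 and Hoxa13 overlapped in CD1 hindlimb and in e11.5 null hindlimb (27.8 ± 14.5 for Hoxa13 and 21.5 ± 1.82 for Hoxa9), and not in the other 4 groups. Hoxa10 and Hoxa11 overlapped in CD1 hindlimb and in both e11.0 groups. Hoxa10 had the higher mean in 5 groups, and Hoxa11 in e11.0 null hindlimb (47.7 ± 10.4 against 41.8 ± 7.0 CPM per kb), where it was higher in all 3 libraries. Evx1os exceeded Hottip per kb in all 18 libraries, although the ranges overlapped in 4 of the 6 groups.

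**Figure D1:**
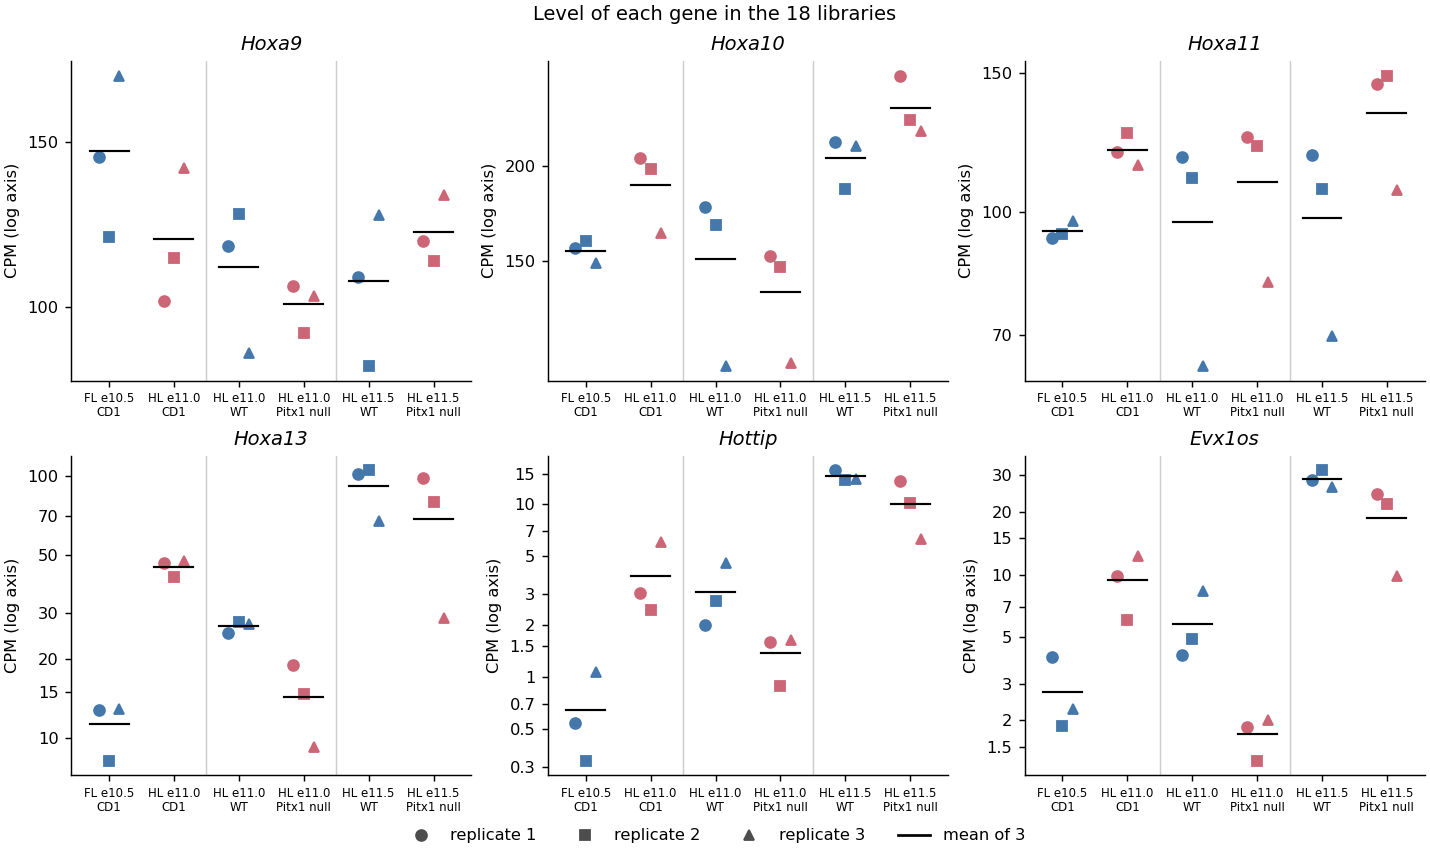
CPM of each gene (log axis, a different range in each panel) in the 18 libraries; symbols are replicates 1 to 3, bars are means of 3, FL is forelimb and HL hindlimb, and grey lines part the separately scaled tables. Hoxa13, Hottip and Evx1os have the widest spread between groups, with group means from 11.3 (Hoxa13) and 0.644 CPM (Hottip) in forelimb and 1.72 CPM (Evx1os) in e11.0 null hindlimb to 91.3, 14.5 and 28.9 CPM in e11.5 wild type hindlimb, while the group means of Hoxa9 stay between 101 and 147 CPM.

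The CD1 comparison asked what sets hindlimb buds apart from forelimb buds matched in morphology. Hoxa13, Hottip and Evx1os were about 3 to 6 times as high in e11.0 hindlimb as in e10.5 forelimb, Hoxa10 and Hoxa11 were slightly higher, and Hoxa9 was slightly lower. All 6 passed the limma test, 5 higher and 1 lower, where 5.87% of 13540 listed genes passed (2.41% higher and 3.46% lower). The authors' deposited adjusted p also called all 6, and 12.5% of all listed genes, and so did edgeR's quasi-likelihood test on reads recovered from the steps of the CPM values, which called 6.51%. Hoxa13 was at 12.7, 8.16 and 12.9 CPM in forelimb replicates 1, 2 and 3 and at 46.5, 41.0 and 47.3 CPM in hindlimb. Every hindlimb library stood above every forelimb library, at a ratio of means of 3.99 (log2 fold change on the log2(CPM + 1) scale 1.93 ± 0.13 SE, limma adjusted p = 4.39e-05). Hottip was at 0.539, 0.326 and 1.07 CPM in forelimb, which were 14, 8 and 48 reads, and at 3.04, 2.44 and 6.07 CPM in hindlimb. Its groups did not overlap either, with a ratio of means of 5.98 (1.51 ± 0.13, limma adjusted p = 0.000168), and since a pseudocount of 1 pulls in low values, the authors' deposited table gives a larger log2 fold change of 2.56. Genes were listed only with at least 3 libraries above 1 CPM. Forelimb replicates 1 and 2 lay under that, so Hottip was listed through the hindlimb group, where it is high. Its difference in CD1 is therefore a description and not independent support. Evx1os was at 4.04, 1.88 and 2.26 CPM in forelimb and 9.90, 6.07 and 12.3 CPM in hindlimb, again without overlap. Its ratio of means was 3.45 (1.48 ± 0.24, limma adjusted p = 0.00605), and the call was lost without forelimb replicate 3 (adjusted p = 0.0687) or without hindlimb replicate 3 (0.0697).

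The 3 genes nearer the middle of the cluster differed by far less. Hoxa11 was at 92.8, 93.8 and 97.5 CPM in forelimb and 119, 126.03 and 115 CPM in hindlimb, every hindlimb library being higher (0.34 ± 0.05, limma adjusted p = 0.0035). Hoxa10 was at 156, 159 and 149 CPM in forelimb and 205, 198 and 163 CPM in hindlimb (0.28 ± 0.05, limma adjusted p = 0.0146), and hindlimb replicate 3 lay only just above the forelimb values. Its call was lost without forelimb replicate 2 (adjusted p = 0.0543), hindlimb replicate 1 (0.0996) or hindlimb replicate 2 (0.088). Hoxa9 was at 144, 119 and 176 CPM in forelimb and 101, 113 and 141 CPM in hindlimb. It was lower in hindlimb at each replicate number, although the numbers do not clearly form pairs in CD1. Its groups overlapped (-0.30 ± 0.07, limma adjusted p = 0.0385). Its call was lost with the replicate number as a block (adjusted p = 0.0604) and without forelimb replicate 3 (0.159), hindlimb replicate 1 (0.187), hindlimb replicate 2 (0.0598) or hindlimb replicate 3 (0.159). Groups did not overlap for 5 of the 6 genes, as for 11.2% of all listed genes. Without the run term only Hoxa13 kept its call in this comparison, and 13 genes in all were called. Replicates 1 and 2 alone gave differences of -0.29 for Hoxa9 (adjusted p = 0.153) and 1.21 for Evx1os (adjusted p = 0.0647), and the other 4 genes were called. Muscle precursor markers moved in the same comparison (2 of 4 lower, summed level 107 to 142 CPM in forelimb and 82.8 to 112 CPM in hindlimb), as did erythroid ones (2 of 5 higher, 3096 to 3128 and 3171 to 4121 CPM). Of 6 limb mesenchyme markers 2 were lower, Fgf10 and Twist1 (summed level 872 to 1272 and 846 to 1163 CPM), as were 1 of 7 surface ectoderm markers (174 to 198 and 174 to 190 CPM) and 1 of 4 listed somite and trunk markers (56.9 to 82.4 and 51.3 to 62.4 CPM), which was Pax1 at 9.38 ± 5.53 and 2.68 ± 1.46 CPM (-1.39 ± 0.13, limma adjusted p = 0.000196). None of the endothelial and macrophage markers passed by limma or edgeR in CD1, with 1 and 0 at an unadjusted limma p under 0.05. For all these lists, their part in the result was not tested.

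Along the cluster the CD1 difference ran from lower at the 3′ end to higher at the 5′ end. Of the 12 other cluster genes 7 were lower and 2 higher in hindlimb, with a median log2 fold change of -0.53 against 0.006 over all listed genes. Hoxaas2, 1 of those lower, was listed through the forelimb group (1.96 ± 0.462 CPM, against 0.369 ± 0.158 CPM in hindlimb). The lower genes lay on the 3′ side, among them Hoxa7 (-0.71 ± 0.07, limma adjusted p = 0.000481), Hoxa5 (-0.86 ± 0.10, adjusted p = 0.000731) and Hoxa2 (-1.01 ± 0.12, adjusted p = 0.000932), Hox factors of the trunk, neck and head. The higher ones were Hoxa11os (0.73 ± 0.06, adjusted p = 9.02e-05), the antisense partner of Hoxa11, and Evx1 (1.27 ± 0.16, adjusted p = 0.00143), so that the sign changed between Hoxa9 and Hoxa10. Of the 6 genes flanking the cluster, Creb5 and Skap2 were lower by -0.58 and -0.48 and 4 did not pass. The HoxD cluster, which patterns the limb in parallel, split as well: of Hoxd9 to Hoxd13 and Evx2, Hoxd9 (-1.09 ± 0.06, limma adjusted p = 1.11e-05) and Hoxd10 (-0.64 ± 0.06, adjusted p = 0.000162) were lower, and Evx2 (0.89 ± 0.12, adjusted p = 0.00214) and Hoxd12 (0.39 ± 0.08, adjusted p = 0.0145) were higher. Evx2 was listed through the hindlimb group (0.946 ± 0.335 CPM in forelimb, against 2.64 ± 0.905 CPM in hindlimb). Hoxd13, the paralogue of Hoxa13, differed by 0.24 ± 0.10 (adjusted p = 0.199).

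**Figure D2:**
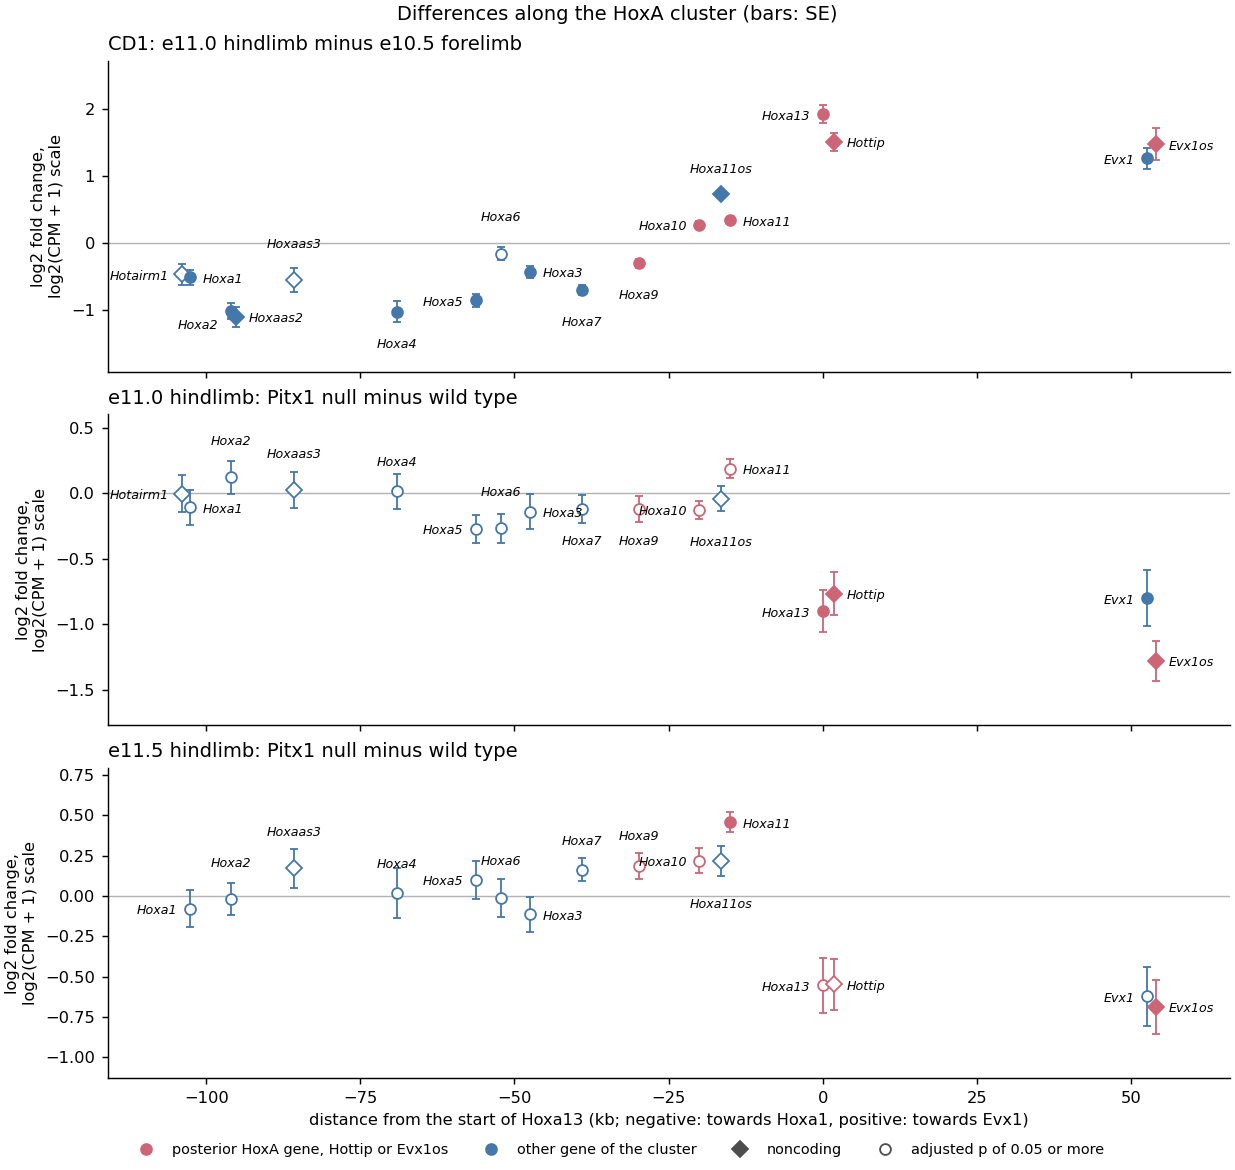
Log2 fold change on the log2(CPM + 1) scale (bars, SE of the limma fit over 3 against 3 libraries) of the listed HoxA cluster genes, plotted by distance in kb of the gene's start from that of Hoxa13, in the 3 comparisons (vertical ranges differ). The start is the outermost annotated one. It puts Hoxa3 (-47.5 kb) nearer to Hoxa13 than Hoxa4 (-69.1), Hoxa5 (-56.3) and Hoxa6 (-52.2), against their numbered order. In each panel Hoxa13, Hottip, Evx1 and Evx1os stand together on the side away from the 3′ genes, above 0 in CD1 hindlimb (1.27 to 1.93) and below 0 in Pitx1 null hindlimb (-1.28 to -0.77 at e11.0 and -0.69 to -0.55 at e11.5).

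In hindlimbs without Pitx1 at e11.0 the same 3 genes at the 5′ end were lower and the rest were not called. Hoxa13 stood at 53.8%, Hottip at 43.9% and Evx1os at 29.7% of the wild type mean, and these 3 of 6 genes passed the limma test, all lower, where 13.1% of 14027 listed genes passed (8.41% lower and 4.73% higher). Evx1os was at 4.11, 4.89 and 8.35 CPM in the wild type libraries and 1.86, 1.28 and 2.02 CPM in the null ones, with a clear gap between the groups (-1.28 ± 0.15, limma adjusted p = 0.00128). It was called in all 6 fits that left out 1 library (adjusted p = 5.87e-05 to 0.0211). Hoxa13 was at 25.0, 27.6 and 27.1 CPM in wild type but at 19.0, 14.7 and 9.24 CPM in null. The wild type libraries lay close together and the null ones were spread, all below them (-0.90 ± 0.16, limma adjusted p = 0.0103). Hottip was at 2.01, 2.76 and 4.60 CPM in wild type (39, 48 and 197 reads) and 1.59, 0.887 and 1.63 CPM in null (30, 18 and 72 reads), also without overlap (-0.77 ± 0.17, limma adjusted p = 0.0215). Null replicate 2 lay under 1 CPM, so the null libraries alone would not have listed Hottip. It was listed through the wild type group, where it is high. Its difference at e11.0 is therefore, as in CD1, a description and not independent support.

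The calls of Hoxa13 and Hottip at e11.0 did not hold in every fit that left out 1 library. That of Hoxa13 was lost without wild type replicate 1 (adjusted p = 0.0506), wild type replicate 3 (0.0613) or null replicate 3 (0.0568), and that of Hottip without those (0.0637, 0.147 and 0.144) or without null replicate 2 (0.0832). Without wild type replicate 1 the differences themselves were larger (-1.02 for Hoxa13 and -0.90 for Hottip), and 116 of all genes were called in place of 1843. Without replicate 3 of either group they were smaller (-0.62 and -0.60), with 193 and 196 genes called. In replicates 1 and 2 alone, all of 1 run, only Evx1os was called (-1.10), and the adjusted p was 0.0555 for Hoxa13 and 0.145 for Hottip. Without the run term none of the 6 was called at e11.0, and 5 genes were called in all.

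Hoxa9, Hoxa10 and Hoxa11 did not pass at e11.0. Hoxa9 was at 116, 125.6 and 89.1 CPM in wild type against 105, 93.8 and 103 CPM in null (-0.12 ± 0.10, limma adjusted p = 0.411), with overlapping groups. Hoxa10 was at 177, 167 and 109 CPM in wild type against 152, 147 and 110 CPM in null (-0.13 ± 0.07, limma adjusted p = 0.218), and Hoxa11 at 117, 111 and 64.0 CPM and 124, 121 and 81.8 CPM (0.19 ± 0.07, limma adjusted p = 0.0995). Replicate 3 was the lowest of both groups in Hoxa10 and Hoxa11. Hoxa11 was higher in null at each replicate number, and was called with median-ratio scaling (0.28, adjusted p = 0.0298), by edgeR on the recovered reads (0.26, adjusted p = 0.0462) and in the authors' deposited table (log2 fold change 0.26, adjusted p = 0.0129), which calls 4 of the 6 genes at e11.0 and 20.6% of all listed genes. The edgeR test called the same 4 genes, and 12.4% of all. Groups did not overlap for 3 of the 6 genes, as for 18.5% of all listed genes. Of 11 listed other cluster genes only Evx1 passed, lower (-0.80 ± 0.22, limma adjusted p = 0.0389), with a median of -0.11 for the list against -0.07 over all listed genes. None of the 6 flanking genes and none of the 6 HoxD and Evx2 genes passed by limma or edgeR at e11.0, and 1 of each list had an unadjusted limma p under 0.05.

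Markers of other cell types differed in the same e11.0 libraries. All 4 endothelial markers were lower in null (summed level 125 to 177 CPM in wild type against 63.5 to 125 CPM in null), as were 3 of 4 muscle precursor markers (83.5 to 94.7 and 64.6 to 72.1 CPM). Of the muscle markers, Myf5 was listed through the wild type group (2.37 ± 0.346 CPM, against 0.923 ± 0.172 CPM in null). Met, the muscle marker not called, made up most of that sum (67.2 ± 6.28 and 57.5 ± 3.9 CPM). Of 7 surface ectoderm markers 4 were higher (245 to 605 and 324 to 720 CPM), and of 6 limb mesenchyme markers 2, Prrx1 and Msx1, were lower (820 to 1084 and 622 to 896 CPM). Of 4 listed somite and trunk markers Meox1 was higher and Meox2 lower (list sum 62.2 to 68.8 and 57.4 to 61.8 CPM). None of the erythroid and macrophage markers passed by limma or edgeR. The part of these lists in the results of Hoxa13, Hottip and Evx1os was not tested. In bulk samples fewer cells of a type and less RNA per cell cannot be told apart.

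At e11.5 Evx1os was again lower in null hindlimb and Hoxa11 was higher, while Hoxa13 and Hottip missed the threshold by limma. These 2 of 6 genes passed where 10.8% of 13478 listed genes did (2.83% higher and 7.96% lower). The edgeR test on recovered reads called the same 2, and 12.1% of all. Hoxa11 was at 118, 107 and 69.9 CPM in wild type against 145, 149 and 107 CPM in null. The groups overlapped, since wild type replicates 1 and 2 exceeded null replicate 3, but null was higher at each replicate number (0.46 ± 0.06, limma adjusted p = 0.00338), and the call held in all 6 fits that left out 1 library (adjusted p = 0.00433 to 0.0271). Evx1os was at 28.6, 31.6 and 26.4 CPM in wild type against 24.5, 21.7 and 9.90 CPM in null, with no overlap (-0.69 ± 0.17, limma adjusted p = 0.0337). Its call was lost with the replicate number as a block (adjusted p = 0.0514) and without wild type replicate 3 (0.066), null replicate 2 (0.109) or null replicate 3 (0.0575).

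Hoxa13 at e11.5 was at 102, 105 and 67.3 CPM in wild type but at 98.1, 79.1 and 28.7 CPM in null, so the groups overlapped and replicate 3 was the lowest of each. The difference was -0.55 ± 0.17 (limma adjusted p = 0.0692), and without null replicate 1 it was called (adjusted p = 0.0168). Hottip was at 15.7, 13.9 and 13.9 CPM in wild type against 13.6, 10.2 and 6.29 CPM in null. These groups did not overlap, though the highest null library came close to the lowest wild type one (-0.55 ± 0.16, limma adjusted p = 0.0556), and it was called without wild type replicate 2 (adjusted p = 0.0357) or null replicate 1 (0.0103). The authors' deposited table calls both lower, Hoxa13 by a log2 fold change of -0.48 (adjusted p = 0.0104) and Hottip by -0.64 (adjusted p = 0.000866). It calls 5 of the 6 genes at e11.5, and 19.6% of all listed genes. The size of the difference varied with the replicate number: null Hoxa13 was 96.3%, 75.4% and 42.6% of wild type in replicates 1, 2 and 3, Hottip 86.6%, 73.1% and 45.1% and Evx1os 85.7%, 68.7% and 37.5%. In replicates 1 and 2 alone the differences were -0.23, -0.31 and -0.37, none of them called.

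**Figure D3:**
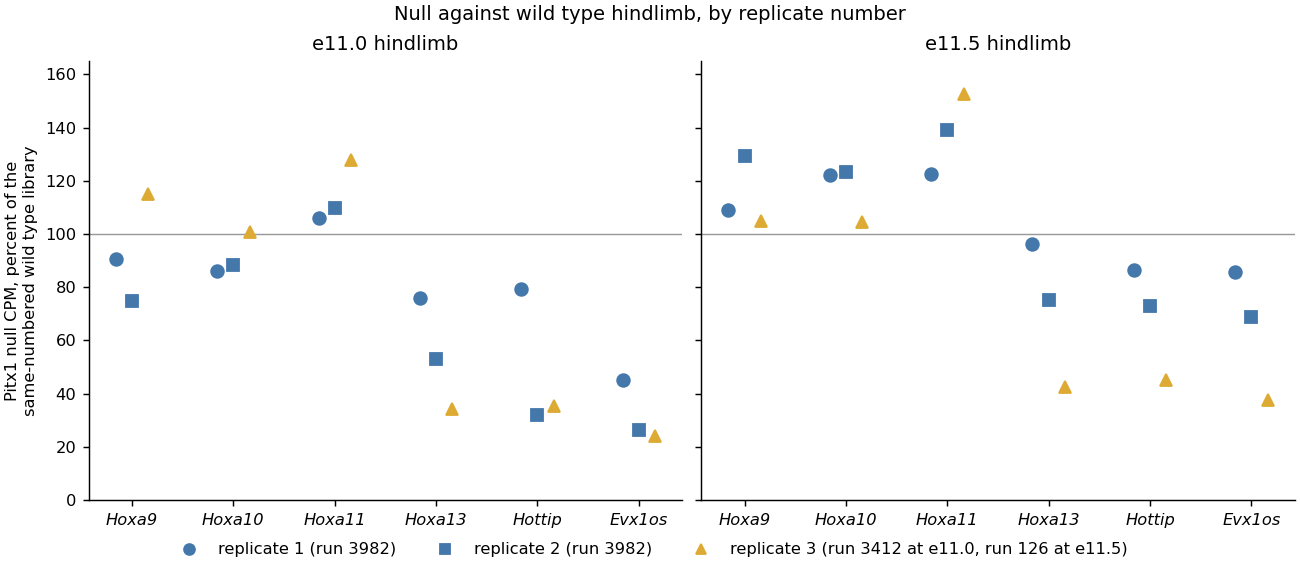
CPM of each Pitx1 null library as a percent of the wild type library with the same replicate number, at e11.0 (left) and e11.5 (right); blue symbols are from the run shared by all groups, yellow triangles from the other run of each stage, and the grey line marks 100%. All points of Hoxa13, Hottip and Evx1os lie under the line, from 24.1% to 96.3%, and all points of Hoxa11 lie above it, from 106% to 153%.

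Hoxa10 at e11.5 was at 215, 186 and 213 CPM in wild type against 262, 230 and 222 CPM in null, and Hoxa9 at 108, 86.4 and 125 CPM and 117, 112 and 132 CPM. Both were higher in null at each replicate number, and for Hoxa10 the groups did not overlap. Neither passed by limma (0.22 ± 0.08, adjusted p = 0.0997, for Hoxa10, and 0.19 ± 0.08, adjusted p = 0.156, for Hoxa9), although Hoxa10 did with the replicate number as a block (adjusted p = 0.0475) and in the authors' deposited table (log2 fold change 0.25, adjusted p = 0.0224). Groups did not overlap for 3 of the 6 genes, as for 16.5% of all listed genes. Without the run term none of the 6 was called at e11.5, and 11 genes were called in all. None of the 10 listed other cluster genes passed by limma or edgeR, and 2 had an unadjusted limma p under 0.05 (median 0.001, against -0.02 over all listed genes), Evx1 being at -0.62 ± 0.18 (adjusted p = 0.06). Of the 6 flanking genes 4 were lower, Creb5 (-0.76 ± 0.08, limma adjusted p = 0.00123), Jazf1 (-0.44), Snx10 (-0.36) and Hibadh (-0.23). In the HoxD cluster Hoxd11 (0.41 ± 0.07, limma adjusted p = 0.0107) and Hoxd10 (0.34 ± 0.07, adjusted p = 0.0174) were higher and Evx2 (-0.75 ± 0.20, adjusted p = 0.045) was lower. Limb mesenchyme markers differed too (4 of 6 higher in null, summed level 1264 to 1543 CPM in wild type against 1344 to 1655 CPM in null). So did muscle precursor markers (4 of 4 lower, 98.6 to 113 and 69.7 to 76.7 CPM). Lower as well were 1 of 4 endothelial markers, Cdh5 (list sum 292 to 311 and 255 to 276 CPM), and 1 of 3 macrophage markers, Csf1r (list sum 17.4 to 22.4 and 12.6 to 17.2 CPM). Of 7 surface ectoderm markers none passed by limma, and edgeR called Epcam and Krt8. The part of these lists in the result was not tested.

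Whether the effect of Pitx1 loss itself differed between the stages was tested as an interaction over 12 libraries and 12935 genes listed in both tables. None of the 6 genes passed by limma, where 47 genes (0.363%) did. The effect at e11.5 minus that at e11.0 was 0.35 ± 0.27 for Hoxa13 (limma adjusted p = 0.452), 0.22 ± 0.25 for Hottip (0.63) and 0.59 ± 0.24 for Evx1os (0.202). For Hoxa9, Hoxa10 and Hoxa11 it was 0.30 ± 0.14 (0.247), 0.34 ± 0.11 (0.147) and 0.27 ± 0.10 (0.176). All 6 differences were positive, and the unadjusted p was under 0.05 for Hoxa10, Hoxa11 and Evx1os (0.00828, 0.0191 and 0.0299). Stage and library preparation cannot be told apart here. Side by side, wild type hindlimb means at e11.0 and e11.5 were 26.6 ± 1.37 and 91.3 ± 20.9 CPM for Hoxa13, 3.12 ± 1.33 and 14.5 ± 1.05 CPM for Hottip, and 97.3 ± 29.1 and 98.3 ± 25.3 CPM for Hoxa11.

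The ratio of the CPM of 2 genes in 1 library does not depend on how that library was scaled, whereas log2 ratios from log2(CPM + 1), used for the tests, also depend on the added 1 where a gene is low. Hoxa13 was 8.70% to 13.7% of Hoxa11 in CPM in CD1 forelimb libraries and 32.5% to 41.2% in CD1 hindlimb libraries. It was 21.3% to 42.4% in wild type and 11.3% to 15.3% in null libraries at e11.0, and 86.1% to 98.1% and 26.9% to 67.7% at e11.5. The groups did not overlap in any of the 3 tables, with mean log2 differences of 1.59, -1.09 and -1.01, each at an exact permutation p of 0.1 (two-sided), the smallest that 3 against 3 can give. The ratio of Hottip to its divergent neighbour Hoxa13 overlapped between groups in every table (differences of -0.41, 0.14 and 0.004; exact permutation p = 0.3, 0.7 and 1). These 3 differences turned to 0.41, -0.15 and -0.03 with a pseudocount of 0.1, so they give no direction, and in plain CPM Hottip was 4.0% to 8.25% of Hoxa13 in CD1 forelimb and 5.96% to 12.8% in CD1 hindlimb. The ratio of Evx1os to Hoxa13 overlapped too (-0.45, -0.38 and -0.14; exact permutation p = 0.2, 0.5 and 0.5), but between libraries of the same replicate number it was lower in null in 3 of 3 pairs at e11.0 (-0.46, -0.50 and -0.18) and in 3 of 3 at e11.5 (-0.16, -0.12 and -0.13). The ratio of Hoxa10 to Hoxa9 overlapped (0.58, -0.01 and 0.03; exact permutation p = 0.2, 1 and 0.8) and was higher in CD1 hindlimb in 3 of 3 pairs (0.90, 0.39 and 0.46). The permutations did not use these pairs, which were looked at after the values were seen and were not tested. In CD1 the replicate numbers do not clearly form pairs. These 12 ratio tests were not adjusted, since none could pass.

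**Figure D4:**
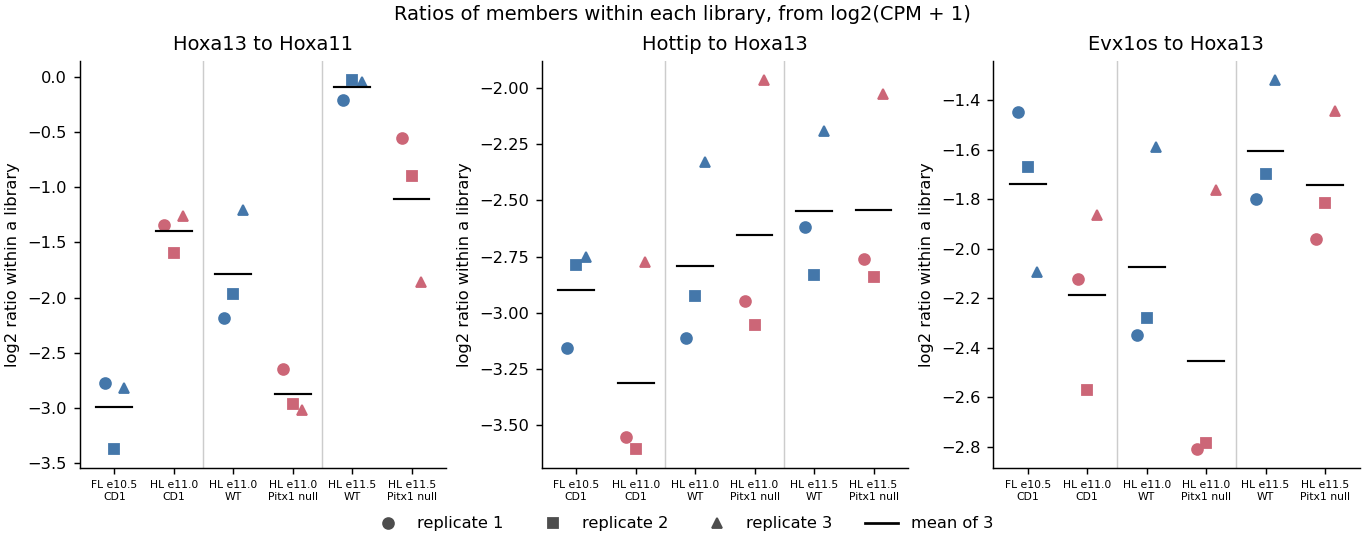
Log2 ratio of Hoxa13 to Hoxa11, Hottip to Hoxa13 and Evx1os to Hoxa13 within each library, from log2(CPM + 1), by group; symbols are replicates, bars means of 3, and grey lines part the tables. The ratio of Hoxa13 to Hoxa11 separates the groups of each table, with group means from -2.99 in CD1 forelimb to -0.10 in e11.5 wild type, while the other ratios overlap and replicate 3 of the hindlimb groups has the highest values.

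Genes linked to these by earlier work were counted in lists. Of 8 subunits and partners of the MLL and WDR5 complex, which human HOTTIP binds, none passed by limma in CD1 or at e11.5 (1 and 2 at an unadjusted p under 0.05), and Dpy30 alone passed at e11.0 (0.26 ± 0.08, limma adjusted p = 0.0497). By edgeR none passed in CD1 and Dpy30 alone at e11.5. Wdr5 itself was at 147 ± 2.85 and 152 ± 2.75 CPM in CD1 forelimb and hindlimb, and differed by -0.02 ± 0.06 and 0.15 ± 0.05 in null at e11.0 and e11.5. Of 7 Polycomb repressive complex 2 genes, which keep Hox genes silent, Jarid2 was lower in CD1 hindlimb (-0.26 ± 0.05, adjusted p = 0.0149), Eed was higher in e11.0 null (0.39 ± 0.07, adjusted p = 0.01) and none passed by limma or edgeR at e11.5 (1 at an unadjusted limma p under 0.05). The medians of these lists lay between -0.17 and 0.07.

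Of 9 genes reported as HOXA13 targets, 2 were higher and 3 lower in CD1 hindlimb, 1 higher and 1 lower in e11.0 null, and 1 higher and 3 lower in e11.5 null (medians 0.01, 0.09 and -0.12). Hand2, a factor of the posterior bud, was higher in CD1 hindlimb (0.43 ± 0.05, limma adjusted p = 0.000731) and lower in e11.0 null (-0.49 ± 0.08, adjusted p = 0.00729). Aldh1a2, which makes retinoic acid, was higher in CD1 hindlimb (1.195 ± 0.145), higher in e11.0 null (0.63 ± 0.16) and lower in e11.5 null (-1.07 ± 0.25). Bmp7 was lower in CD1 hindlimb (-0.26 ± 0.06) and higher in e11.5 null (0.47 ± 0.05, adjusted p = 0.00169). Of 8 genes of the posterior signals that act on HoxA and HoxD genes, CD1 hindlimb had 4 higher and 2 lower, e11.0 null 2 lower and e11.5 null 2 higher (medians 0.30, -0.02 and 0.33). Shh, the posterior signal, was higher in CD1 hindlimb (0.66 ± 0.08, limma adjusted p = 0.00105) and did not pass in null at e11.0 (-0.57 ± 0.20, adjusted p = 0.0751) or e11.5 (-0.03 ± 0.09, adjusted p = 0.846). Gli3, which represses Shh targets, was lower in CD1 hindlimb (-0.45 ± 0.05) and in e11.0 null (-0.66 ± 0.12). Grem1, a Bmp antagonist, was higher in CD1 hindlimb (0.345 ± 0.067), lower in e11.0 null (-0.38 ± 0.09) and higher in e11.5 null (0.40 ± 0.06). Fgf10, the growth factor that starts limb outgrowth, was lower in CD1 hindlimb (-0.39 ± 0.08) and higher in e11.5 null (0.65 ± 0.07, limma adjusted p = 0.00123). It did not pass in e11.0 null (0.21 ± 0.12, limma adjusted p = 0.208).

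Likeness to each gene was measured as Pearson's r over the 18 libraries, after the mean of each table and run class was taken out. The nearest were ranked among 12591 genes, which leave out the 6 members. The points share their groups and controls, so r is a description. The non-member nearest to Hoxa13, to Hottip and to Evx1os was the same, 9530018H14Rik (r = 0.99, 0.986 and 0.953), and the next non-member was Evx1 (0.965, 0.951 and 0.951). 9530018H14Rik (ENSMUSG00000102373, chromosome 6, 52256218 to 52257460, minus strand, annotated as a transcript to be experimentally tested) starts 233 bases beyond the 3′ end of Hoxa13 on the same strand. Its CPM was 18.5% to 26.3% of that of Hoxa13 in all 18 libraries, and it differed by 1.61 ± 0.13 in CD1 hindlimb and -0.94 ± 0.14 and -0.57 ± 0.18 in null. Among the members r was 0.978 between Hoxa13 and Hottip, 0.95 between Hottip and Evx1os and 0.933 between Hoxa13 and Evx1os, but 0.089 between Hoxa13 and Hoxa11, 0.652 between Hoxa10 and Hoxa11 and -0.452 between Hoxa9 and Hoxa13. The nearest to Hoxa10 were Frem1 (0.954), a basement membrane protein, and Gli1 (0.92), a target of Shh. Nearest to Hoxa11 was Ppa1 (0.956), a pyrophosphatase, and to Hoxa9 Zwilch (0.942), of the mitotic checkpoint.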

How the data were processed

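RNA was measured in 18 libraries of mouse limb buds, 3 in each of 6 groups. Reads were aligned with STAR, counted with featureCounts against GRCm38 (mm10) and tested with edgeR, per the submitters' processing notes; versions are not given in the sources used here. The authors deposited CPM per library, summing to 1000000 over the genes listed (13540, 14027 and 13478), and no gene was listed that had fewer than 3 libraries above 1 CPM. The authors' log2 fold change and average log2 CPM, likelihood-ratio score, p-value and adjusted p-value were deposited beside it, per the file headers. Identifiers matched GENCODE release M 21 for 13513, 13998 and 13457 genes. Depth (24.5 to 45.0 M reads in CD1, 17.4 to 44.2 M at e11.0, 30.2 to 53.6 M at e11.5) was read from the steps of the CPM values, 100% of which were whole multiples of 1 read within 0.01 read; lacking molecular identifiers, reads may repeat a molecule, so depth covers counting error only.

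The log2(CPM + 1) values of each table went into a separate limma fit (version 3.58.1, R 4.3.3) with a prior variance trend over mean level and terms for group and run (the shared run against the other; in CD1, where the titles of replicate 3 name no run, replicate 3 against the rest), which left 3 residual degrees of freedom. P-values are two-sided and were adjusted by Benjamini-Hochberg over all listed genes, with a threshold of 0.05, and the script was tested on simulated data. Such fold changes understate those of low genes. Alternatives were a pseudocount of 0.1, a mean CPM of at least 1, no run term, the replicate number as a block, TMM and median-ratio scaling, edgeR's quasi-likelihood test (version 4.0.16) with the run term on the recovered reads, the authors' table, replicates 1 and 2 alone and leaving out each library. Same-numbered libraries deviated together from their group means (r across genes for replicates 1 to 3, CD1 gave 0.686, 0.798, 0.939; at e11.0 it was 0.662, 0.637, 0.855; at e11.5 it was 0.733, 0.83, 0.914), so the numbers were taken as pairs; the shared run also enters these values, and in CD1 the crossed pairs 1 and 2 reached 0.748 and 0.852.

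The members were given by name. The lists, markers and motifs were chosen with earlier results of these data known. At most 4 called genes of each list, by smallest adjusted p, and per member the nearest genes by r were named. Called genes within this rule but not described above were Epha7 (-0.34 in CD1, -0.30 at e11.5) and Meis2 (-0.21 in CD1). The same holds for Sostdc1 (-0.46 at e11.5) and Ptch1 (0.34 in CD1). Some values were named outside that rule, after they were seen. They are those of Wdr5, Hoxd13, Shh and Hoxaas2, of Evx1 in CD1 and at e11.5, and of Bmp7 in CD1. The others are those of Fgf10 in CD1 and at e11.0 and of the single marker genes.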

Additional observations from a re-analysis of the deposited data

How the results depend on the processing

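The counts of the 6 genes called were 6, 3 and 2 in CD1, at e11.0 and at e11.5, and those of all genes 795, 1843 and 1455, with 0 and 47 for the interaction. No run term left 1, 0 and 0 of the 6 genes and 13, 5 and 11 of all genes, and 0 in the interaction. With the replicate number as a block, all genes called were 640, 3442 and 1437, and 210 in the interaction; of the 6 genes 5, 3 and 2 were called, Hoxa9 losing its call in CD1, Evx1os losing its own and Hoxa10 gaining one at e11.5, and no other call of the 6 genes changed. The edgeR test on recovered reads called 6, 4 and 2 of the 6 genes and 881, 1734 and 1630 of all. The authors' deposited table called 6, 4 and 5 of the 6 genes and 1689, 2895 and 2644 of all. Replicates 1 and 2 alone called 4, 1 and 1, and 471, 199 and 483 of all. A pseudocount of 0.1 changed no call of the 6 genes and gave 31 interaction calls over all genes. Leaving out 1 library gave 4 to 6, 1 to 3 and 1 to 4 of the 6 genes, 0 to 1 in the interaction (Hoxa10, adjusted p = 0.0497 without e11.0 wild type replicate 2), and 394 to 1191, 116 to 5273, 433 to 2627 and 10 to 2567 of all genes. The lowest of these came without CD1 hindlimb replicate 1, e11.0 wild type replicate 1, e11.5 null replicate 2 and e11.0 null replicate 2. The highest came without CD1 forelimb replicate 1, e11.0 wild type replicate 2, e11.5 null replicate 1 and e11.0 wild type replicate 2. Leaving out 1 replicate 3 library gives the estimate of replicates 1 and 2 alone, since the run term then takes up the other. The cause of the other changes was not tested.

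Every log2 difference of the 6 genes kept its sign under all alternatives. Some ratios near 0 did not. The ratio of Hottip to Hoxa13 differed by 0.413, -0.148 and -0.034 with a pseudocount of 0.1, and when 1 library was left out it ran from -0.211 to 0.366 at e11.0 and -0.255 to 0.182 at e11.5. That of Evx1os to Hoxa13 ran from -0.284 to 0.008 at e11.5, and that of Hoxa10 to Hoxa9 from -0.119 to 0.152 at e11.0 and -0.066 to 0.144 at e11.5. The ratio of Hoxa13 to Hoxa11 kept its sign, at 1.40 to 1.70, -1.29 to -0.80 and -1.28 to -0.63. With 3 libraries a group, 1 of them from another run or, in CD1, from a run not named, small differences such as those of Hoxa9 and Hoxa10 rest on few libraries, and the low read numbers of Hottip in forelimb limit its fold change.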

Other observations

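The antisense partner Hoxa11os did not keep a fixed ratio to Hoxa11, a comparison chosen after its values were seen. Hoxa11 was 236% to 291% of Hoxa11os in CPM in CD1 forelimb libraries and 192% to 209% in CD1 hindlimb libraries. At e11.0 it was 163% to 222% in wild type and 176% to 265% in null libraries. At e11.5 it was 111%, 119% and 62.0% in wild type replicates 1, 2 and 3, and 112%, 124% and 98.0% in null ones. In both e11.5 groups the lowest value was that of replicate 3, the unstranded library, and replicate 3 was the lowest of both e11.0 groups as well. Hoxa11os itself was at 35.9 ± 3.05 CPM in CD1 forelimb and 103 ± 11.8 CPM in e11.5 wild type hindlimb (SD, n = 3), in tables scaled separately, while Hoxa11 was at 94.7 ± 2.48 and 98.3 ± 25.3 CPM.

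Evx1os was 84.7%, 73.0% and 111% of Evx1 in CD1 forelimb and 89.9%, 67.5% and 195% in CD1 hindlimb replicates 1, 2 and 3. At e11.0 it was 116% to 125% of Evx1 in wild type and 59.3%, 66.7% and 110% in null libraries, and at e11.5 109% to 133% and 112% to 122%. The highest value of each CD1 group and of the e11.0 null group was that of replicate 3.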
